A study of Mus musculus with 2 samples.

Results

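Mirlet7g and Mirlet7i are the let-7 genes of the mouse that stand alone in the genome, apart from the let-7 clusters. They were chosen by name, with earlier results of these data known. They are 2 of the 1973 microRNA (miRNA) gene identifiers counted in the newborn thymus. They are also 2 of the 294 detected ones, those with 10 or more counts in each library. The samples were both thymus lobes of each of 2 littermate pups of the strain B6NCrl, taken at postnatal day 0, with 1 small RNA library (under 30 nucleotides) per pup. Replicate 2 came from pup 3 and replicate 1 from pup 2. Neither pup carried a treatment or a modified allele in the labels, their sex was not collected, and both libraries form 1 group, so the data hold no contrast between conditions. Separate library preparation, dissection and depth cannot be told apart from the pup.

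let-7 miRNAs are short RNAs that lower the output of messenger RNAs carrying matching sites, and they are known for accumulating as cells leave the embryonic state. The seed, bases 2 to 8 of the mature RNA, sets most of the pairing with targets, which include growth and fetal genes such as Hmga2, Ras genes and Lin28 genes. The LIN28 proteins in turn hold back the maturation of many let-7 precursors by binding their terminal loop, where a GGAG motif is a known contact. In the mouse thymus, let-7 is known to restrain the effector programme of natural killer T cells, and high Lin28b is known to give lymphocyte development its fetal form.

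The mature sequences show how the members relate to the family. They are given 5′ to 3′ from RefSeq (GRCm38.p6), with the seed in capitals. The first 2 are the members, and the others are the 5p arms of the clustered let-7 genes and Mir98.
let-7g-5p: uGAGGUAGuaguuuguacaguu
let-7i-5p: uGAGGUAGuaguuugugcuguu
let-7b-5p: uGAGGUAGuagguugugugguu
let-7d-5p: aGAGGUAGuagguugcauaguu
miR-98-5p: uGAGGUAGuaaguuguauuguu
let-7e-5p: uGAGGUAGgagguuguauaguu
let-7f-5p: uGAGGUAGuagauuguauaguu
let-7a-5p: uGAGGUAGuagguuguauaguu
let-7c-5p: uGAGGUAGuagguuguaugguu

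All 9 sequences had 22 bases and the same seed, GAGGUAG. Counted from 1 at the 5′ end, let-7i-5p differed from let-7g-5p by A17G and A19U. The members shared 2 bases that none of the 7 other sequences held, at positions 12 and 18. Against let-7a-5p, for example, let-7g-5p differed by U12G and C18U (let-7g base first), and let-7i-5p by U12G, G17A, C18U and U19A (let-7i base first). let-7g-5p differed from the 7 others at 2 to 4 bases and let-7i-5p at 3 to 6.

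**Figure D1:**
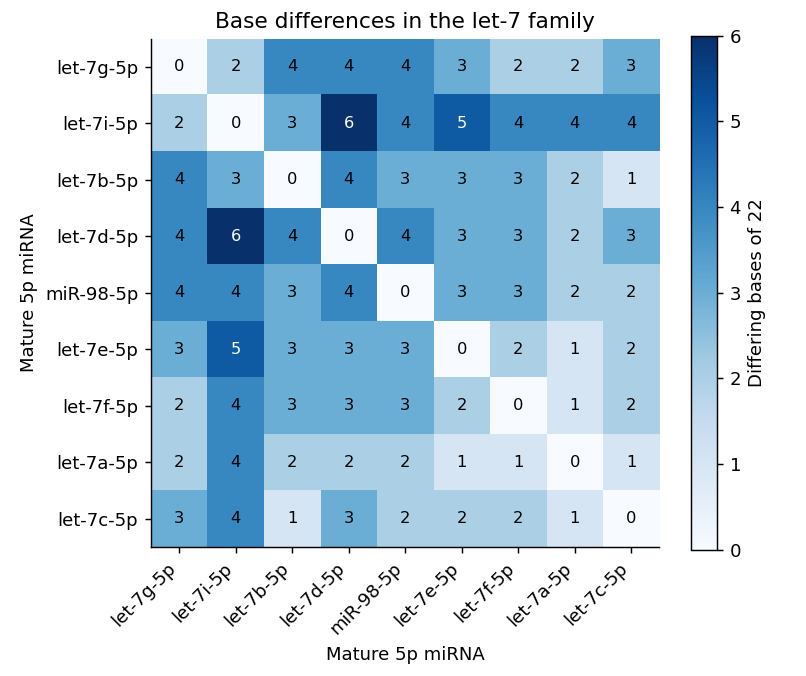
Number of differing bases among 22 between each pair of mature 5p sequences of the let-7 family, with the members first on both axes. let-7g-5p and let-7i-5p differ from each other at 2 bases and from let-7d-5p at 4 and 6.

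Each member's mature 5p sequence was found in 1 hairpin of the RefSeq table, and so were those of Mirlet7b, Mirlet7d, Mir98 and Mirlet7e. let-7a-5p, let-7c-5p and let-7f-5p were each found in 2 hairpins. Matches were looked for in that hairpin table, and the genome was not searched. The authors' tables tallied reads that mapped to more than 1 place apart from the genes (57.5% of the reads in replicate 2 and 56.3% in replicate 1). Reads of Mirlet7a-1, Mirlet7a-2, Mirlet7c-1, Mirlet7c-2, Mirlet7f-1 and Mirlet7f-2 can therefore be missing from their counts, and whether shortened or mismatched reads of the members were lost in the same way was not tested.

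The hairpins of the members show their arms, in capitals, around the loop that LIN28 proteins are known to bind.
Mirlet7g: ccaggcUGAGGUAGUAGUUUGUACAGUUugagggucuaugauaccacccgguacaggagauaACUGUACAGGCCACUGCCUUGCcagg
Mirlet7i: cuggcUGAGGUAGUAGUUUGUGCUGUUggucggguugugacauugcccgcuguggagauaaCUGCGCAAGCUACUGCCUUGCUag

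Both loops, the stretch between the arms, were 34 bases long, and both held 1 GGAG, shown here in capitals.
Mirlet7g loop: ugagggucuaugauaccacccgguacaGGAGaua
Mirlet7i loop: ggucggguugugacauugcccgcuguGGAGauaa

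GGAG, searched on the RNA strand, lay between the arms at 9 of the 12 let-7 family loci, the exceptions being Mirlet7b, Mir98 and Mirlet7c-2. It was present somewhere in 44.5% of the 1005 hairpins in the table. The 3p arms of the members, set off by 1 base, differed at 4 of 21 bases. The count tables give 1 value per gene, so the 5p and 3p arms cannot be separated in the counts.

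The members' places in the genome differ (GRCm38, GENCODE M21 annotation). Mirlet7g (ENSMUSG00000065440.1, chromosome 9, plus strand, 106178840 to 106178927) sat in intron 2 of the protein-coding transcript of Wdr82, on the same strand, 2129 bases after the exon before it and 1638 bases before the next exon. WDR82 is a subunit of complexes that methylate histone H3 at promoters. Mirlet7i (ENSMUSG00000065406.2, chromosome 10, minus strand, 122985640 to 122985724) sat within D630033A02Rik, a transcribed processed pseudogene on the same strand. It overlapped the exon of a transcript of that gene that has 1 exon, and lay in the intron of a transcript with 2, with 20 and 11 bases to the flanking exons.

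The nearest annotated miRNA gene to Mirlet7g was Mir135a-1, at 24.6 kb, which had 2 counts in replicate 2 and 1 in replicate 1. The nearest to Mirlet7i was Gm27920, at 211 kb, with 0 counts in replicate 2 and 6 in replicate 1. These 2 neighbours were named because they are nearest, whatever their counts. All 10 of the other family loci had another miRNA gene within 10 kb, and 129 of the 294 detected genes (43.9%) had none within that distance.

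The libraries held 1289151 counts on the gene strand in replicate 2 and 2734133 in replicate 1, and levels are counts per 1000000 of these (CPM). A count of 0 allows up to 3 counts, a level of 2.33 CPM in replicate 2 and 1.10 CPM in replicate 1. The labels describe no molecular identifiers, and intervals and floors cover counting error only. Of the marker lists, 4 of 4 thymocyte and lymphocyte genes in the table were detected, with summed levels of 41696 CPM in replicate 2 and 42997 CPM in replicate 1. Of the 5 genes listed, Mir142 was not in the table and is not in this sum. The strand opposite to Mir142b, also outside the sum, had 178605 counts in replicate 2 and 387318 in replicate 1. All 4 epithelial genes were detected (30872 and 30838 CPM), and none of the 5 neuronal genes, numbered copies whose shared reads would be multimapping, was (0.776 and 0.366 CPM, with 4 at 0). Of the 5 muscle genes in the table, 2 were detected. The 3 others, Mir1a-1, Mir133a-1 and Mir133a-2, were at 0 and are numbered copies like the neuronal genes. Muscle genes summed to 627 CPM in replicate 2 and 467 CPM in replicate 1, and the counts were those of Mir206 (442 and 445 CPM) and Mir208b (185 and 21.9 CPM). The mesenchymal pair summed to 59401 CPM in replicate 2 and 44890 CPM in replicate 1, and the endothelial gene had 37298 and 28049 CPM. Red cell, myeloid, liver and brown fat lists each summed to between 77.9 and 919 CPM. Mir375, the only gene of the pancreas list, had 6444 CPM in replicate 2 and 6677 CPM in replicate 1. The myeloid, liver, brown fat (Mir455) and pancreas lists held 1 gene each, which cannot show that such a tissue was present. The part of these cell types in the differences between the libraries was not tested.

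Mirlet7g was the gene with the most counts on the gene strand in each library. It had 79394 counts in replicate 2, a level of 61586 CPM (95% Wilson interval 61173 to 62003), and 202451 counts in replicate 1, a level of 74046 CPM (73736 to 74357). Its mean was 67816 CPM ± 8810 (SD, n = 2), or 6.78% ± 0.881 of the counts. Its level was thus lower in replicate 2, and the intervals of the 2 libraries did not overlap.

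Mirlet7i had 35554 counts in replicate 2, a level of 27579 CPM (27298 to 27863), and 60841 counts in replicate 1, a level of 22252 CPM (22078 to 22428). Its mean was 24916 CPM ± 3767 (SD, n = 2), or 2.49% ± 0.377 of the counts. Unlike Mirlet7g, it was higher in replicate 2, and again the intervals did not overlap. It was the gene of rank 10 in replicate 2, of rank 12 in replicate 1 and of rank 11 by mean level.

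Nearly all reads at both loci lay on the strand of the gene. Mirlet7g had 0 opposite-strand counts in both libraries, which allows up to 0.00378% of its reads in replicate 2 and 0.00148% in replicate 1. Mirlet7i had 1 opposite-strand count in replicate 2 and 0 in replicate 1.

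**Figure D2:**
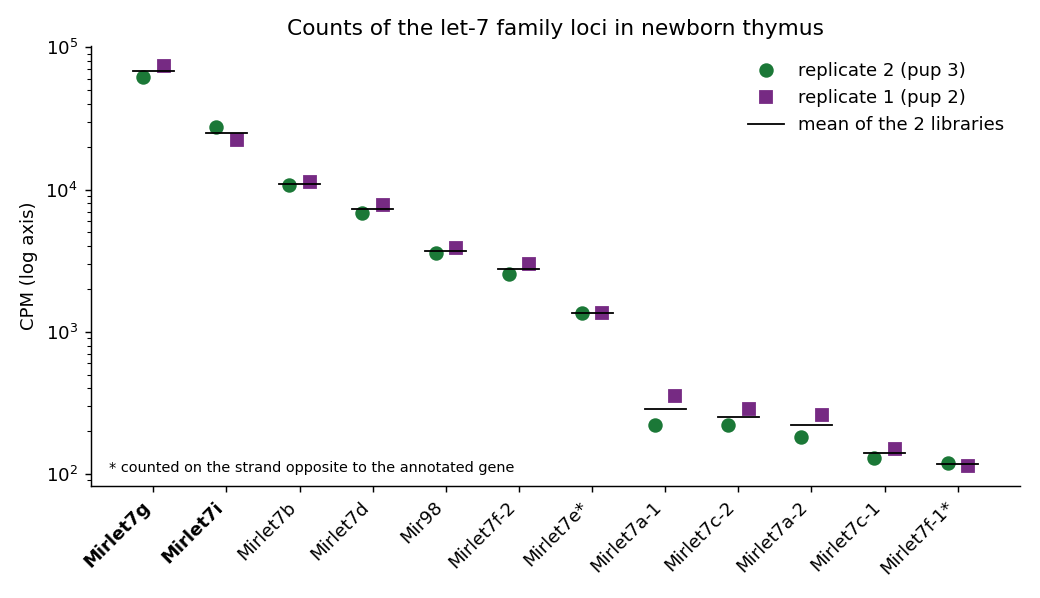
CPM on a log axis of each let-7 family locus in replicate 2 (circles) and replicate 1 (squares), with the mean of the 2 libraries as a bar. Mirlet7g and Mirlet7i stand highest, and Mirlet7i is the gene-strand member with its circle above its square. Loci with an asterisk were counted on the strand opposite to the annotated gene. Multimapping reads, to which the let-7a, let-7c and let-7f genes can lose reads, are left out.

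In the order of mean levels, the range of Mirlet7g over the libraries overlapped that of 1 other detected gene, Mir26b, the next in rank, a miRNA in an intron of Ctdsp1. Mir26b had 54302 CPM in replicate 2 and 65679 CPM in replicate 1, below Mirlet7g within each library. Mirlet7i overlapped 2 genes. Mir20a, of the miR-17-92 cluster that promotes lymphocyte proliferation, stood just above it with 26797 CPM in replicate 2 and 30830 CPM in replicate 1. Mir23a stood just below with 23713 CPM in replicate 2 and 23415 CPM in replicate 1. These ranks leave out multimapping reads and the opposite strand. The strand opposite to Mir142b, named after its values were seen, had 178605 counts in replicate 2 and 387318 in replicate 1, above both members, and no other opposite-strand count exceeded either member. The order of Mirlet7i and these neighbours turned between the libraries, so their levels do not differ beyond the spread over the libraries.

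**Figure D3:**
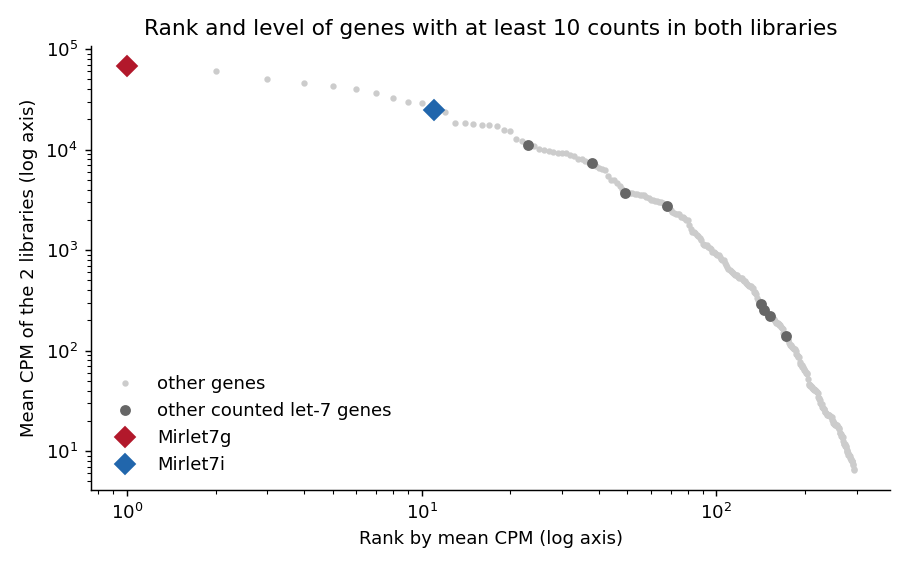
Mean CPM of the 2 libraries against rank, both on log axes, for the 294 detected genes. Mirlet7g is at rank 1 and Mirlet7i at rank 11, and the other counted let-7 genes lie between ranks 23 and 173. Ranks are by gene-strand counts, which leave out multimapping reads and reads on the opposite strand.

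Likeness of pattern was measured as the Euclidean distance in log2 CPM over the 2 libraries, which mostly reflects level. Nearest to Mirlet7g were Mir26b (distance 0.25), Mir143, typical of smooth muscle (0.79), and Mir17 (0.79). Nearest to Mirlet7i were Mir23a (0.23), Mir93 (0.45) and Mir20a (0.47). The members lay 2.09 apart. With 2 libraries this distance ranks genes and has no test.

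Mirlet7g exceeded Mirlet7i in each library, by an amount that differed between the pups. The ratio of Mirlet7g to Mirlet7i counts was 2.23 in replicate 2 (exact 95% interval 2.21 to 2.26) and 3.33 in replicate 1 (3.30 to 3.36), with a mean of 2.78 ± 0.774 (SD, n = 2). Per base of the annotated genes, which are 88 and 85 bases long, the ratio was 2.16 in replicate 2 and 3.21 in replicate 1. The mature arms of both members are 22 bases long, so reads of the arms need no such scaling. The difference in log2 ratio between the libraries, Mirlet7g minus Mirlet7i, was -0.58 (95% interval -0.60 to -0.55), and it does not depend on scaling. Fisher's exact test (two-sided) gave a p at or under 1e-300, the lowest value written. This test sets 1 library against 1 library by counting error and says nothing of pups in general.

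The sum of the members changed less than either of them relative to the family. Of the counts of the 10 let-7 genes counted on their own strand, Mirlet7g took 54.1% in replicate 2 and 60.1% in replicate 1, and Mirlet7i took 24.2% in replicate 2 and 18.1% in replicate 1. Together they took 78.4% in replicate 2 (95% Wilson interval 78.2 to 78.6) and 78.2% in replicate 1 (78.1 to 78.3), intervals that overlap. This is a share of counted reads, since multimapping reads of the other genes were left out. Of all gene-strand counts, the members together took 8.92% in replicate 2 and 9.63% in replicate 1.

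**Figure D4:**
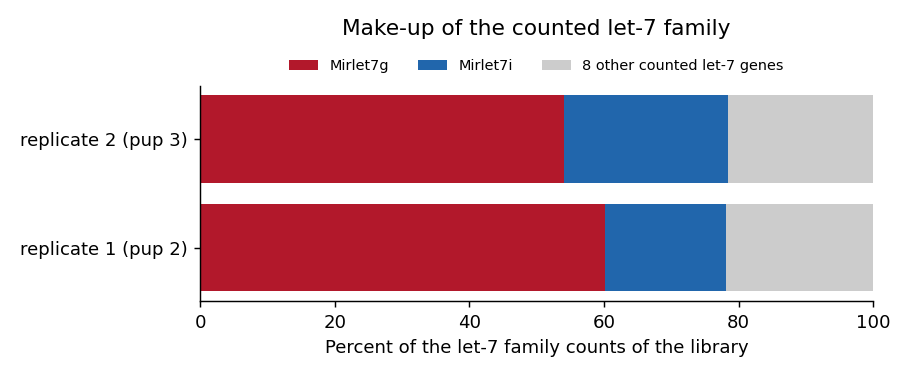
Percent of each library's let-7 family counts taken by Mirlet7g, Mirlet7i and the 8 other counted let-7 genes. Multimapping reads, to which the let-7a, let-7c and let-7f genes can lose reads, are left out. Mirlet7g takes 54.1% in replicate 2 and 60.1% in replicate 1, while both members together take 78.4% and 78.2%.

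In counted reads, which leave out multimapping reads of the let-7a, let-7c and let-7f genes, the members exceeded each clustered let-7 gene in both libraries. The next was Mirlet7b, with 10836 CPM in replicate 2 and 11215 CPM in replicate 1, so that Mirlet7g exceeded it 6.14 ± 0.650 times and Mirlet7i 2.26 ± 0.397 times (ratio of counts, SD, n = 2). Mirlet7d followed at 7303 CPM ± 608, Mir98 at 3719 ± 214 and Mirlet7f-2 at 2765 ± 299. Mirlet7a-1, Mirlet7a-2, Mirlet7c-1 and Mirlet7c-2 had means between 140 and 288 CPM, and they are among the genes whose mature 5p sequence lies at 2 loci.

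Mirlet7e and Mirlet7f-1 are overlain by Gm25927 and Gm24111, annotated on the other strand, and their reads were counted there as opposite-strand reads, at 1348 CPM ± 5.31 and 117 CPM ± 4.07. With these 2 loci added, the members took 77.4% of the family counts in replicate 2 and 77.3% in replicate 1. Among the loci whose mature 5p sequence lies in 1 hairpin, they took 79.8% in replicate 2 and 79.9% in replicate 1. Outside the list of 12 loci, 2 mature sequences in the RefSeq table have the same seed. Mir1961 had 0 counts in both libraries, and Mirlet7k was not analysed here.

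Between the littermates, scaled by TMM (a trimmed mean of log ratios), the members moved in opposite directions by more than counting error. Mirlet7g was lower in replicate 2, at a log2 ratio (replicate 2 over replicate 1) equal to -0.33 (exact 95% bounds -0.34 and -0.32, two-sided exact binomial test, Benjamini-Hochberg adjusted p at or under 1e-300). Mirlet7i was higher in replicate 2, with a log2 ratio of 0.24 (0.22 to 0.26, adjusted exact binomial p = 3.2e-137). The same test called 43.5% of the 294 genes, 23.5% lower and 20.1% higher in replicate 2, so a call alone does not set the members apart. Called genes were 59 higher and 69 lower, or 72 higher and 52 lower when scaled to total counts.

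The sizes of the members' differences were common among the genes. Of the 294 genes, 91 (31.0%) had an absolute log2 ratio at least as large as that of Mirlet7g and 134 (45.6%) at least as large as that of Mirlet7i, and the median absolute log2 ratio was 0.21. Of the 25 genes averaging 10000 CPM or more, a limit set with the values known, 24 were called (96%), with log2 ratios of -0.54 to 0.45. Among these 25, Mirlet7g was the third lowest and Mirlet7i the fifth highest. edgeR's negative binomial test, which adds a spread between libraries estimated from these same libraries (a coefficient of variation of 0.154), called neither member, with unadjusted p = 0.29 for Mirlet7g and 0.44 for Mirlet7i (adjusted p = 1 for both). It called 1 of the 294 genes (0.34%), Mir208b, named after its values were seen, with 238 counts in replicate 2 and 60 in replicate 1 (log2 ratio 3.01 on TMM effective library sizes; adjusted p in the negative binomial test 3.57e-12), and 15 passed at an unadjusted p under 0.05.

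Mirlet7g had the direction of most other let-7 genes and Mirlet7i the opposite one. Of the 8 other counted let-7 genes, 7 were lower in replicate 2 by the exact binomial test and none higher. The same test called 23.5% of all 294 tested genes lower and 20.1% higher. Calls are more common at higher counts. With the filter at 100 counts in both libraries, which all 8 pass, 56 of 191 genes were lower and 59 higher. All 8 log2 ratios were below 0, between -0.74 (Mirlet7a-1) and -0.12 (Mirlet7b), while 137 of the 294 tested genes were above 0. The median of the 8 was -0.28, against -0.03 for all tested genes. Counts of the let-7a, let-7c and let-7f genes leave out multimapping reads, so their ratios rest on the remainder. Mirlet7c-1 did not pass (log2 ratio -0.28, adjusted exact binomial p = 0.075). The opposite-strand counts of Mirlet7e and Mirlet7f-1 had log2 ratios of -0.07 and 0.0044, with intervals that include 0. These genes share libraries and, within clusters, transcripts, so they are not independent of each other. Of the 6 genes that share transcripts with let-7 clusters, 4 were higher in replicate 2 by the exact binomial test, as Mirlet7i was. Among all 294 tested genes 20.1% were, and 59 of the 191 with at least 100 counts in both libraries, a filter these 6 pass. The 4 were Mir99b (log2 ratio 0.53), Mir99a (0.45), Mir100 (0.33) and Mir125a (0.11), and Mir125b-1 (-0.12) and Mir125b-2 (0.02) did not pass. The negative binomial test called only Mir208b, so none of the let-7 genes or of these 6.

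**Figure D5:**
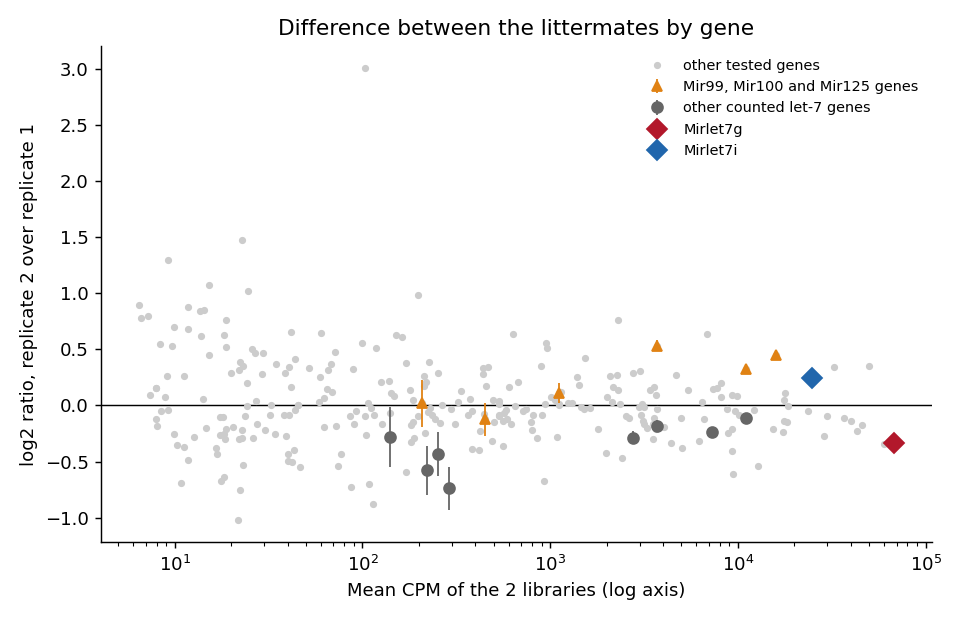
log2 ratio (replicate 2 over replicate 1, TMM scaled) against the mean CPM on a log axis for the 294 tested genes, with exact 95% intervals for the let-7 genes and for the Mir99, Mir100 and Mir125 genes. Mirlet7g lies at -0.33 with the other let-7 genes below 0, and Mirlet7i at 0.24 above it.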

How the data were processed

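Small RNA under 30 nucleotides was sequenced from 2 newborn thymuses, 1 library each. The deposited values are raw read counts per miRNA gene with 3 unnamed columns per library, on mm10 and GENCODE annotation M4, per the text files deposited by the authors beside the tables. The aligner and counter remain unnamed (not given in the sources used here). From the values, the first column is the sum of the others, which are the gene strand (used here) and the opposite strand. Unmapped (9.17% of reads in replicate 2 and 10.6% in replicate 1), multimapping and unassigned reads were left out of library sizes. GENCODE M21 gave symbols for 1894 of the 1973 identifiers.

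CPM used the gene-strand total. Genes with 10 or more counts in each library were compared, replicate 2 over replicate 1, by a two-sided exact binomial test on TMM effective library sizes (edgeR 4.0.16, R 4.3.3, scipy 1.17.1, Python 3.11.15), adjusted by Benjamini-Hochberg over all 294 genes, with calls at 0.05. A quasi-likelihood fit has no group to test in 1 group. The binomial test was tested on simulated data that held counting error only. That check cannot show how the test behaves with spread between libraries. Alternatives were both strands summed, DESeq2 1.42.0 size factors, total counts, TMM without Mirlet7g, filters of 1 and 100 counts, other denominators, a negative binomial test, and each library alone. Named genes were the members, the let-7 family, their neighbours in rank, the 3 nearest in log2 CPM, and the genes sharing transcripts with let-7 clusters. Members and lists were chosen with earlier results of these data known. Sequences came from the RefSeq table for GRCm38.p6, where all 12 family loci were found.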

Additional observations from a re-analysis of the deposited data

Results flagged for a closer look

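Counts outside the gene strand were found at 2 let-7 family loci, above the 3 counts that a count of 0 allows. On the strand opposite to Gm25927, where Mirlet7e lies, there were 1733 counts in replicate 2 and 3696 in replicate 1. On the strand opposite to Gm24111, where Mirlet7f-1 lies, there were 155 counts in replicate 2 and 313 in replicate 1. Both are below the levels of Mirlet7g and Mirlet7i in each library.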

How the results depend on the processing

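Each member's log2 ratio kept its direction and call under 7 of 8 alternatives. These 7 kept the exact binomial test and changed the scaling, filter or strand, so they do not probe the spread between libraries. With both strands summed, Mirlet7g had 57989 CPM, the members' share of counts was 7.93% and their share of the family 77.3%. They took 2.41% of all reads in the tables and 79.9% of single-locus family genes. The negative binomial test gave log2 ratios of -0.33 for Mirlet7g and 0.24 for Mirlet7i (adjusted p = 1 for both) and called 1 gene, where the exact binomial test called 128. Its added spread between libraries is by construction. Across the 8 alternatives for each, the log2 ratio ranged from -0.35 to -0.27 for Mirlet7g and from 0.23 to 0.31 for Mirlet7i. Each library alone gave 61586 to 74046 CPM for Mirlet7g, 22252 to 27579 CPM for Mirlet7i, a ratio of 2.23 to 3.33, 8.92% to 9.63% of counts and 78.2% to 78.4% of the family. With 2 libraries, each one alone lies within 1 SD of their mean by construction. With opposite-strand counts ranked as further loci, an alternative chosen after seeing the data, Mirlet7g had rank 2 and Mirlet7i rank 12. Values between the libraries cannot be had from 1 library. No paired analysis was possible because both libraries form 1 group. Depth does not limit the members' own counts, but 2 libraries limit what is known of their spread.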
